A study of Rattus norvegicus with 18 samples.

Results

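Fos, Jun and their relatives were followed in cultured rat hippocampal neurons through 10 genes of basic leucine zipper (bZIP) transcription factors: Fos, Fosb, Fosl1, Fosl2, Jun, Junb, Jund, Atf3, Crem and Nfil3. The members were all probe sets that the array's annotation gives to these symbols alone. There were 21 such probe sets, of 31042 probe sets for 14217 named genes on the array. Crem had 6, Jun and Jund had 3 each, Fos and Fosl2 had 2 each, and Fosb, Fosl1, Junb, Atf3 and Nfil3 had 1 each. All 21 were tested, with no filter on low values.

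The neurons were grown in dissociated culture and received a lentivirus on day 3. MEF2-VP16-ER joins the transcription factor MEF2 to the viral activation domain VP16 and to the hormone-binding part of the estrogen receptor, which the drug 4-hydroxytamoxifen (4OHT) switches on. The control virus carried MEF2deltaDBD-VP16-ER, which lacks the DNA-binding domain. Cultures were taken on day 10 without 4OHT (0 h) or after 1 h or 2.5 h in it, so that 2 constructs and 3 times gave 6 groups of 3 biological replicates, numbered 1 to 3 in the labels, on 18 Affymetrix arrays. Every group, the controls included, carried a virus and a VP16-ER fusion. The rat strain and the promoter that drove the fusions are not given in the sources used here. Values are linear intensities as deposited, with array medians of 190.4 to 197.0.

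bZIP factors bind DNA as pairs held together by a leucine zipper. Fos and Jun proteins pair to form AP-1, whereas the CREB, CREM and ATF proteins bind cAMP response elements (CRE), and in neurons Fos, Fosb, Junb and Atf3 are known as immediate early genes that synaptic activity or injury switches on within minutes. Nfil3 is a repressor that binds the sites used by the circadian activators Dbp, Hlf and Tef. MEF2 itself is a factor of another family, activated by calcium entry in neurons.

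Promoter sequences are shown because the members are read through their messenger RNA, and because such windows can hold the elements that bZIP factors bind. The windows come from RefSeq (build GRCr8), run 5′ to 3′ on the gene's strand, and span 250 bases before to 50 bases after an annotated start. Of the 10 genes, 7 had a window in the table and 3 (Fos, Jun and Atf3) did not, and Crem had 3 windows, for 9 in all. Capitals mark the full CRE, TGACGTCA, or its core TGACG on either strand, which is part of the full element. Nfil3 is shown as the gene that rose, Jund as a member with a full element far from the start, and the third Crem window as the only 1 of the 9 with 2 full elements.
Nfil3, chr17:12432126-12432425, plus strand: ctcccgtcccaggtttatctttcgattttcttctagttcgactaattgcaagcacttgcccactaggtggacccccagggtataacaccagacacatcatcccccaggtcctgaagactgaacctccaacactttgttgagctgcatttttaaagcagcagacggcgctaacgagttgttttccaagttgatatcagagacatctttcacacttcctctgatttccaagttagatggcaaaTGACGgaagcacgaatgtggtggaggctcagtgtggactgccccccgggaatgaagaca
Jund, chr16:18769722-18770021, minus strand: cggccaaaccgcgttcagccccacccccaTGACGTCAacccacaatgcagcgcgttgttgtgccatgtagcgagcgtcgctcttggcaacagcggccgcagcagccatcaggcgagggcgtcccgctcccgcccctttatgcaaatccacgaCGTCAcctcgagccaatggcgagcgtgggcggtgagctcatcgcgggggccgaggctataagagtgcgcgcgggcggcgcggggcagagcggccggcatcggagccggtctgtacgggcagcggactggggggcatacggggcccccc
Crem, chr17:58985240-58985539, plus strand: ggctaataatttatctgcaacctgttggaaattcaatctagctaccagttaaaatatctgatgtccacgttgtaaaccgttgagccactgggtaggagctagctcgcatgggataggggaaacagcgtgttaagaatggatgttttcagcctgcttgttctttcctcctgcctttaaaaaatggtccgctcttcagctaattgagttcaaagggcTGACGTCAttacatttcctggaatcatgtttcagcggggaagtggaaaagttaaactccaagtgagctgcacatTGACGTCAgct
The Nfil3 window held a single core, at bases -9 to -5 from the start. The Jund element lay at -221 to -214, with a further core at -98 to -94, and the Crem elements lay at -35 to -28 and at 40 to 47. Counted on both strands, the full CRE was found in 3 of the 9 windows and in 1.83% of all 33469 promoter windows of that length, and its core in 7 of 9 and in 21.2%. Of the 3 windows with the full CRE 2 were of Crem and 1 was of Jund, and all 3 Crem windows held the core. The AP-1 site TGANTCA was found in 0 of 9 windows and in 7.33% of all, the CArG box that serum response factor binds in 0 of 9 and 1.64%, and the MEF2 site in 0 of 9 and 3.29%. These matches describe the letters of the windows only, and a window without a match says nothing of binding elsewhere.

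Nfil3 was the member with the clearest difference between the constructs, and its mean intensity more than doubled at both times in MEF2-VP16-ER neurons. In these neurons the 3 arrays read 1061, 1084 and 867 at 0 h (replicates 1, 2 and 3), 2459.5, 1778 and 2324 at 1 h, and 2414, 2139.9 and 2349 at 2.5 h. In control neurons they read 978, 939 and 627 at 0 h, 1089, 965 and 700.0 at 1 h, and 898, 863 and 726 at 2.5 h. Every MEF2-VP16-ER array at 1 h or 2.5 h lay above every array of the other 4 groups, and control arrays overlapped between all 3 times. Group means at 2.5 h were 2301 ± 143 with MEF2-VP16-ER and 829 ± 91.0 in the control (SD, n = 3).

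Differences are given on the scale log2(intensity + 16), with 3 arrays in each group, as estimate ± the SE from limma. That SE uses a spread pooled over all arrays of the fit and drawn toward that of the other probe sets. Unless stated, it is the SE without replicate number as a block, also where the p beside it is with that block. Folds are on the same scale, which understates the change of dim probe sets. A probe set is said to have risen or fallen where its limma p, adjusted over all 31042 probe sets, was under 0.05. From 0 h to 2.5 h in MEF2-VP16-ER neurons Nfil3 rose by 1.19 ± 0.18 (fold 2.28, adjusted p = 0.00356), with the same direction in all 3 replicates. It was the only 1 of the 21 probe sets called in this comparison, in which 0.789% of all probe sets were called. The call was lost when the arrays of replicate 1 were left out (1.20 ± 0.23, adjusted p = 0.124) or those of replicate 2 (1.30 ± 0.25, adjusted p = 0.147). At 1 h against 0 h the difference was 1.10 ± 0.18 (fold 2.15), and its adjusted p of 0.0524 missed the threshold. None of the 21 was called there, against 0.0354% of all probe sets. At an unadjusted p under 0.05 stood 3 of the 21 and 4.17% of all.

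Between constructs at the same time, a comparison added after the values were seen, Nfil3 was 1.25 ± 0.18 higher with MEF2-VP16-ER at 1 h (fold 2.37, adjusted p = 0.0124) and 1.46 ± 0.18 higher at 2.5 h (fold 2.75, adjusted p = 0.000474). It was again the only member called, in comparisons in which 0.0612% and 1.28% of all probe sets were called. Under the same comparison at 0 h the difference was 0.26 ± 0.18 (adjusted p = 0.712), and 0 of 21 members and 0% of all probe sets were called. At an unadjusted p under 0.05 stood 0 of the 21 and 8.81% of all probe sets. The call at 1 h was lost when the arrays of replicate 1 or 2 were left out (1.29 ± 0.23 and 1.44 ± 0.25, adjusted p = 0.507 and 0.551). It was also lost without the single array of replicate 3 of the control (estimate 1.07, adjusted p = 0.0746). The same held without replicate 1 of MEF2-VP16-ER (1.16, adjusted p = 0.10) or replicate 3 of MEF2-VP16-ER (1.20, adjusted p = 0.0810). The call at 2.5 h was lost without replicate 2 (1.54 ± 0.25, adjusted p = 0.0651).

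Induction here means how much more MEF2-VP16-ER neurons changed after 0 h than control neurons did, which allows for a response to 4OHT or handling that both constructs share. For Nfil3 it was 1.20 ± 0.26 at 2.5 h (fold 2.30, adjusted p = 0.0949) and 0.99 ± 0.26 at 1 h (fold 1.98, adjusted p = 0.996). By replicate it was 1.30, 1.09 and 1.22 at 2.5 h, and 1.05, 0.67 and 1.25 at 1 h. Neither value passed the threshold, and 0 of 21 members were called at either time. Of all probe sets 0.177% were called at 2.5 h and 0.00322% at 1 h. At an unadjusted p under 0.05 stood Nfil3 alone at both times, beside 4.78% and 4.70% of all. Arrays with the same replicate number varied together, and with replicate number as a block in the fit the 2.5 h induction of Nfil3 was called (adjusted p = 0.00423), as 1 of 21 members against 0.937% of all probe sets. Leaving out the replicate 3 array of the control at 0 h, the lowest of the 18, gave 1.40 (adjusted p = 0.0303). The change from 1 h to 2.5 h with MEF2-VP16-ER was 0.08 ± 0.18 (fold 1.06, adjusted p = 0.999). There 0 of 21 members were called, against 0.283% of all probe sets. An unadjusted p under 0.05 was found for 2 of the 21 and for 5.36% of all.

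**Figure D1:**
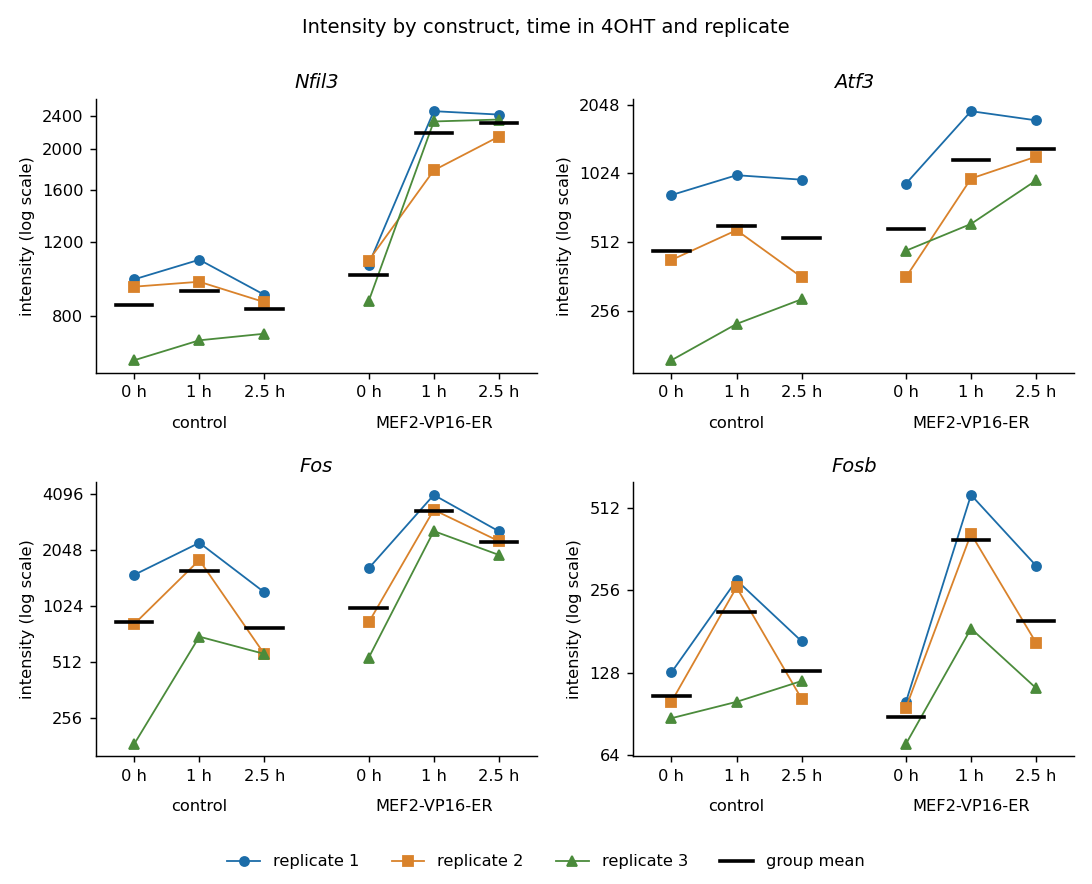
Intensity (log scale, 1 panel a gene) of Nfil3, Atf3, Fos and Fosb by construct and hours in 4OHT, with 1 line per replicate number and a black bar at each group mean (n = 3). Nfil3 of MEF2-VP16-ER neurons lay at 1778 or above at 1 h and 2.5 h and at 1084 or below at 0 h, and in Atf3 and Fos the 3 replicate lines lay far apart.

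Fos, the founding member of the family and a widely used marker of neuronal activity, was highest at 1 h within each construct. Its brighter probe set read 1628, 834 and 539 at 0 h in MEF2-VP16-ER neurons, 4031, 3351 and 2579 at 1 h, and 2571, 2276 and 1920.4 at 2.5 h. In control neurons it read 1502, 818 and 186 at 0 h, 2232, 1803 and 700.0 at 1 h, and 1209, 563 and 565 at 2.5 h. All 3 control replicates were thus higher at 1 h than at 0 h, by 0.57, 1.13 and 1.83, and all 3 MEF2-VP16-ER replicates by more, 1.30, 1.99 and 2.23. The MEF2-VP16-ER arrays lay above the control arrays at 1 h and at 2.5 h with no overlap, and overlapped them at 0 h.

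The group differences of Fos were large and poorly determined. With MEF2-VP16-ER the 1 h minus 0 h difference was 1.84 ± 0.61 (fold 3.57, adjusted p = 1.00) and that at 2.5 h was 1.30 ± 0.61 (fold 2.46, adjusted p = 0.813). With the replicate block their SE was 0.34, and the 2.5 h difference was not called (adjusted p = 0.0669). The 1 h difference passed with the block (adjusted p = 0.0437), but that change was not treated as paired, so this stands among the alternatives. In control neurons they were 1.17 ± 0.61 (fold 2.26) and 0.23 ± 0.61 (fold 1.17), neither called. The induction was 0.66 ± 0.87 at 1 h and 1.07 ± 0.87 at 2.5 h, against a median SE of 0.12 for the 2.5 h induction over all probe sets. Single arrays of the control at 0 h moved it most: it was 0.035 at 1 h and 0.44 at 2.5 h without that of replicate 1, and 1.49 and 1.89 without that of replicate 3. Between constructs at 2.5 h Fos differed by 1.60 ± 0.61 (fold 3.03, adjusted p = 0.405), and this passed with the replicate block (adjusted p = 0.0133). In that blocked comparison 3 of the 21 members were called, Fos, Atf3 and Nfil3, against 3.49% of all probe sets. At 1 h the difference between constructs was 1.20 ± 0.61 (fold 2.29) and was not called with the block either (adjusted p = 0.357), where Nfil3 remained the only member called, against 0.254% of all probe sets. In replicate 3 the constructs already stood apart: at 0 h its MEF2-VP16-ER array was 1.46 above its control array, whereas replicates 1 and 2 differed by 0.11 and 0.03.

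The second Fos probe set did not follow the first. It read between 172 and 249 on all 18 arrays, and its estimates in the 12 comparisons ranged from -0.21 to 0.09. Whether it reads the same transcript was not tested. Fosb, whose protein pairs with Jun like Fos and whose shorter splice form is long-lived, had a single dim probe set, whose mean was likewise highest at 1 h in both constructs. It read 100.1, 95.4 and 70.4 at 0 h with MEF2-VP16-ER, 571, 412 and 186 at 1 h, and 315, 165 and 112 at 2.5 h. In control neurons it read 128, 100.4 and 87.4 at 0 h, 279, 263 and 100.3 at 1 h, and 167, 103 and 119.5 at 2.5 h. All MEF2-VP16-ER arrays at 1 h and at 2.5 h lay above those at 0 h, and the constructs overlapped at every time.

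With MEF2-VP16-ER the Fosb difference from 0 h was 1.83 ± 0.41 at 1 h (fold 3.57, adjusted p = 0.484) and 0.93 ± 0.41 at 2.5 h (fold 1.90, adjusted p = 0.741). The 2.5 h value was called once the block was added (adjusted p = 0.0453). In that blocked comparison 3 of the 21 members rose, Fosb, Atf3 and Nfil3 (adjusted p = 8.99e-05), and none fell, against 2.33% of all probe sets called. The 1 h change of Fosb passed with the block too (adjusted p = 0.00144), where 3 of the 21 members and 0.187% of all probe sets were called. That change was not treated as paired, so this value stands among the alternatives. In control neurons the differences were 0.82 ± 0.41 (fold 1.77) and 0.25 ± 0.41 (fold 1.19). The induction of Fosb was 1.01 ± 0.58 at 1 h and 0.67 ± 0.58 at 2.5 h, and neither was called. From 1 h to 2.5 h Fosb differed by -0.91 ± 0.41 with MEF2-VP16-ER (adjusted p = 0.909), the lowest estimate of the 21 in that comparison.

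Fosl1 and Fosl2, which encode the Fos relatives Fra-1 and Fra-2, stayed within a narrow range. Fosl1 lay between 100.5 and 171 on the 18 arrays, and its 2.5 h minus 0 h difference was 0.15 ± 0.13 with MEF2-VP16-ER and 0.20 ± 0.13 in the control. The probe sets of Fosl2 lay between 115 and 162 and between 106 and 152. No comparison called either gene, and the estimates of their 3 probe sets in the 12 comparisons ranged from -0.18 to 0.24.

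**Figure D2:**
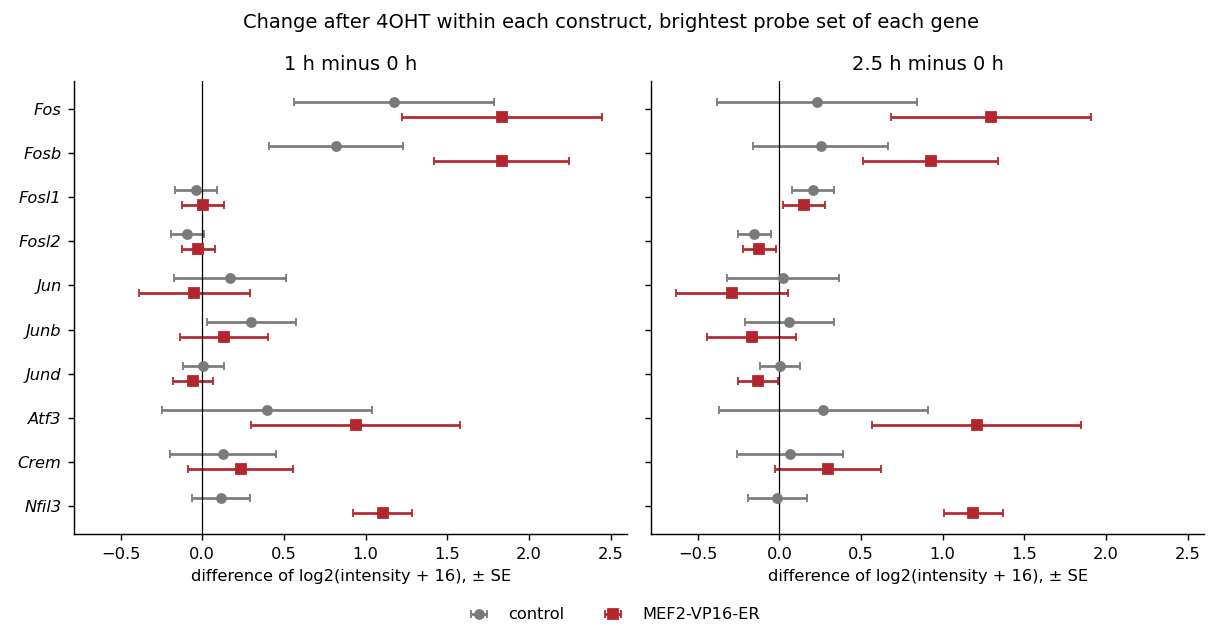
Difference of log2(intensity + 16) from 0 h at 1 h (left) and 2.5 h (right) for the brightest probe set of each gene, in control (grey circles) and MEF2-VP16-ER neurons (red squares), with bars for ± SE of the fit (n = 3 arrays a group). Nfil3 stood at 1.10 and 1.19 with MEF2-VP16-ER and near 0 in the control with short bars, and Fos had differences of 1.84 and 1.30 with bars of 0.61.

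Jun, the main partner of Fos in AP-1 and the substrate of the JNK kinases, was bright and did not separate the constructs. Its brightest probe set read 5165, 3476 and 2987 at 0 h with MEF2-VP16-ER, 4688, 3933 and 2634 at 1 h, and 3797, 3171 and 2440.2 at 2.5 h. In control neurons it read 4679.9, 4261 and 2209 at 0 h, 5238, 4659 and 2587 at 1 h, and 4667, 3933 and 2507 at 2.5 h. Replicate 3 was the lowest array of every group. The 3 Jun probe sets differed by -0.29 to -0.35 between 2.5 h and 0 h with MEF2-VP16-ER, with SE of 0.29 to 0.35. All 3 were lower at 2.5 h in every replicate, and with the block their SE were 0.10 to 0.13 (adjusted p = 0.218 to 0.306). In the control the 3 differed by -0.15 to 0.02. None was called in any comparison, with or without the block.

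Junb, a Jun relative that can restrain Jun, was highest at 1 h on average in both constructs. Its group means were 316 ± 61.3, 351 ± 87.1 and 283 ± 80.7 at 0, 1 and 2.5 h with MEF2-VP16-ER, and 319.8 ± 99.7, 398 ± 123 and 324 ± 23.8 in the control (SD, n = 3). The groups overlapped, and the 1 h minus 0 h differences were 0.13 ± 0.27 and 0.30 ± 0.27, neither called. Jund, the Jun relative present in many resting cells, had a bright probe set between 4093 and 5457 on all arrays. Its second probe set was lower at 2.5 h than at 0 h with MEF2-VP16-ER in every replicate, at 199, 160.2 and 142 after 258, 209.7 and 197. That difference was -0.38 ± 0.16 (adjusted p = 0.655, and 0.0770 with the block), the groups overlapped, and the bright probe set differed by -0.13 ± 0.12. The third Jund probe set was dim, between 65.7 and 79.7.

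Atf3, a factor of the ATF group that is induced by stress and by nerve injury, had a higher mean with MEF2-VP16-ER at both times after 4OHT, and passed the test at 2.5 h with the block only. It read 921, 358 and 468 at 0 h in these neurons, 1915, 970.0 and 613 at 1 h, and 1745, 1210.5 and 952 at 2.5 h. In control neurons it read 821, 426 and 155 at 0 h, 1003, 576 and 224 at 1 h, and 959, 358 and 287 at 2.5 h. With MEF2-VP16-ER the arrays at 2.5 h lay above those at 0 h with no overlap, whereas the constructs overlapped at every time, with replicate 1 high in both. At 1 h the difference from 0 h was 0.94 ± 0.64 (fold 1.92) and that between constructs 1.02 ± 0.64 (fold 2.02), neither called. The latter did not pass with the block either (adjusted p = 0.224). The difference at 2.5 h from 0 h was 1.21 ± 0.64 (fold 2.31, adjusted p = 0.925) and passed with the replicate block (adjusted p = 0.0175). Between constructs at 2.5 h it was 1.41 ± 0.64 (fold 2.66, adjusted p = 0.552), which also passed with the block (adjusted p = 0.00406). The induction at 2.5 h was 0.69, 1.95 and 0.18 by replicate, and was not called in either fit. In replicate 3 the MEF2-VP16-ER array was already 1.50 above its control array at 0 h.

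Crem encodes activators and, from a promoter inside the gene, the short repressor ICER, which cAMP and activity induce. None of its 6 probe sets was called in any comparison, with or without the block. The brightest read 639, 398 and 327 at 0 h with MEF2-VP16-ER, 687, 516 and 390.1 at 1 h, and 609, 513 and 508 at 2.5 h, so that replicates 2 and 3 were higher after 4OHT and replicate 1 was lower at 2.5 h than at 0 h. In control neurons it read 565, 440.3 and 247 at 0 h, 633, 454 and 281 at 1 h, and 528, 372 and 363 at 2.5 h. Its difference at 2.5 h was 0.30 ± 0.32 with MEF2-VP16-ER and 0.07 ± 0.32 in the control. The other 5 probe sets differed at 2.5 h by 0.05 to 0.21 with MEF2-VP16-ER and by -0.11 to 0.00 in the control, with the groups overlapping. Which of them read ICER was not tested.

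**Figure D3:**
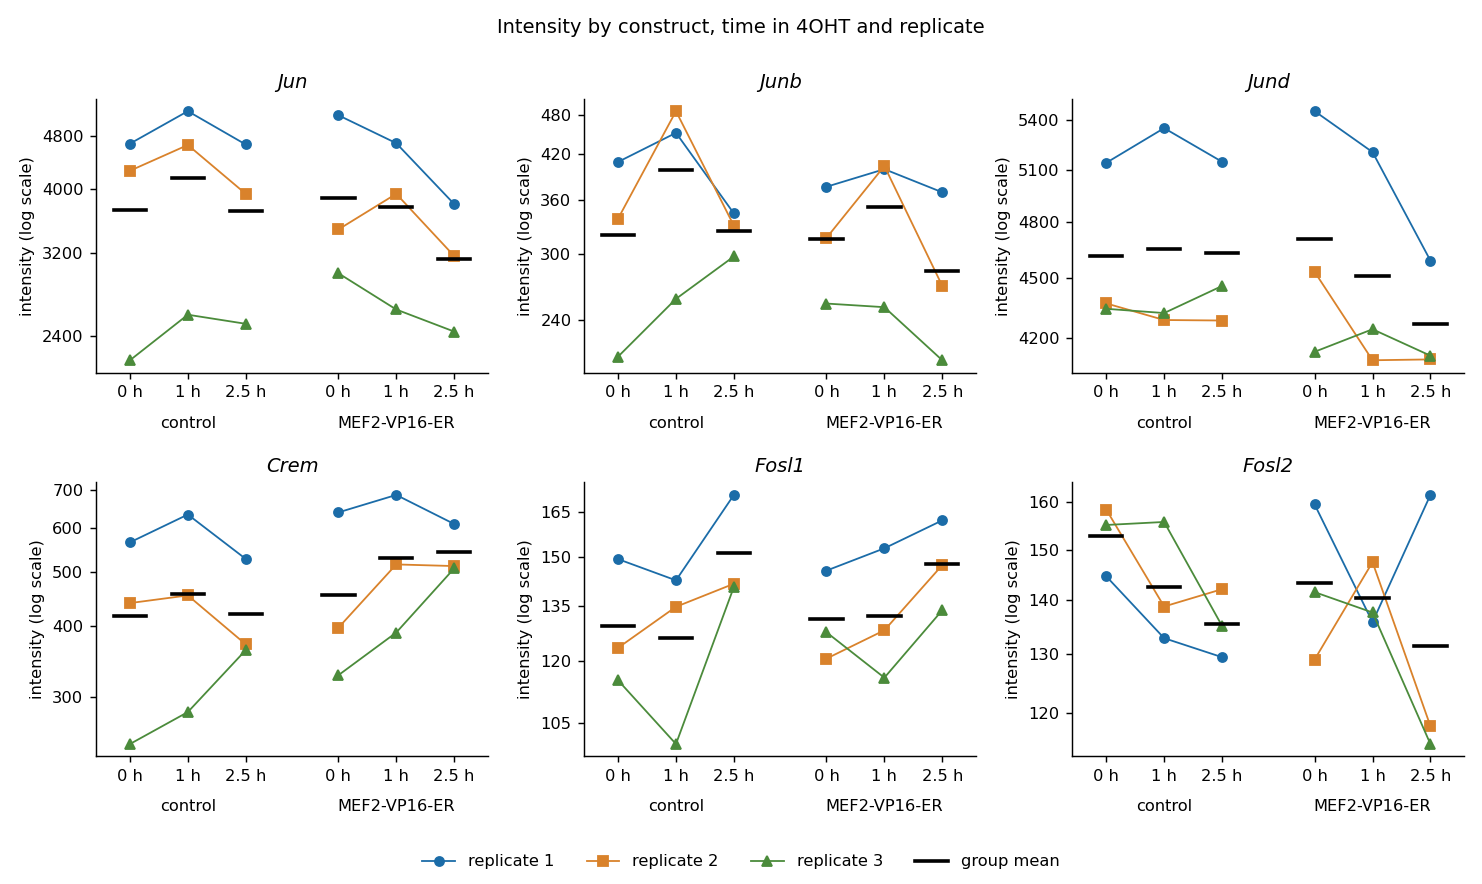
Intensity (log scale, with a separate range in each panel) of the brightest probe set of Jun, Junb, Jund, Crem, Fosl1 and Fosl2 by construct and hours in 4OHT, with 1 line per replicate number and a black bar at each group mean (n = 3). For Jun the replicate 3 arrays lay between 2209 and 2987 and the replicate 1 arrays between 3797 and 5238, whichever the construct or time.

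In control neurons no member was called at 2.5 h or 1 h against 0 h, or at 2.5 h against 1 h, and 0% of all probe sets were called in each of them. At an unadjusted p under 0.05 stood 0 of the 21 in each, beside 2.15%, 2.71% and 2.16% of all. With the replicate block no member was called either, but 1, 3 and 5 of the 21 had an unadjusted p under 0.05, beside 4.27%, 4.40% and 4.83% of all. The 1 at 2.5 h against 0 h was Fosl1 (0.20, unadjusted p = 0.00724), higher at 2.5 h in all 3 replicates. The 3 at 1 h against 0 h were Fosb (unadjusted p = 0.00268), Fos (0.00365) and Junb (0.0244), each higher at 1 h (adjusted p = 1.00 for each). The 5 at 2.5 h against 1 h were Fosl1, higher at 2.5 h (0.24), and 4 that were lower. These 4 were the brighter Fos probe set (-0.94), Fosb (-0.57), the third Jun probe set (-0.28) and the second Fosl2 probe set (-0.18). With MEF2-VP16-ER the block gave an unadjusted p under 0.05 for 11 of the 21 from 0 h to 2.5 h, beside 10.7% of all. From 1 h to 2.5 h it gave 7, beside 9.84%. Between constructs at 2.5 h it gave 7, beside 14.6%, and in the 2.5 h induction 4, beside 8.44%. Each of these sets held estimates of both signs. The medians of the 21 estimates were 0.0012 at 2.5 h and 0.074 at 1 h in the control, beside -0.0065 and 0.0033 over all probe sets. With MEF2-VP16-ER they were 0.054 at 2.5 h and 0.087 at 1 h, beside -0.0034 and -0.014. Members with several probe sets count more than once in these counts and medians. No member was called for a difference between its 1 h and 2.5 h inductions, against 0.0419% of all probe sets, and 0 of 21 had an unadjusted p under 0.05, beside 3.92% of all.

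For Jun, Junb and several other members the replicate number took a larger share of the spread than the groups did. Over the 18 arrays the sum of squares of each probe set was split into a share for the 6 groups, a share for the replicate number and the rest. The group share was 91.0% for Nfil3, 63.8% for Fosb, 61.3% for Fos and 43.0% for Atf3, beside a median of 26.2% over all probe sets. The share of the replicate number was 84.6%, 76.0% and 69.0% for the 3 Jun probe sets, 81.9% for the bright Jund probe set, 68.6% for the brightest Crem probe set, 67.4% for Junb and 47.9% for Atf3, beside a median of 21.2%. It was near that median for Fos (26.5%), Fosb (25.1%) and the fourth Crem probe set (20.5%), and below it for the third Jund probe set (6.44%), Nfil3 (4.13%) and the brighter Fosl2 probe set (2.69%).

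**Figure D4:**
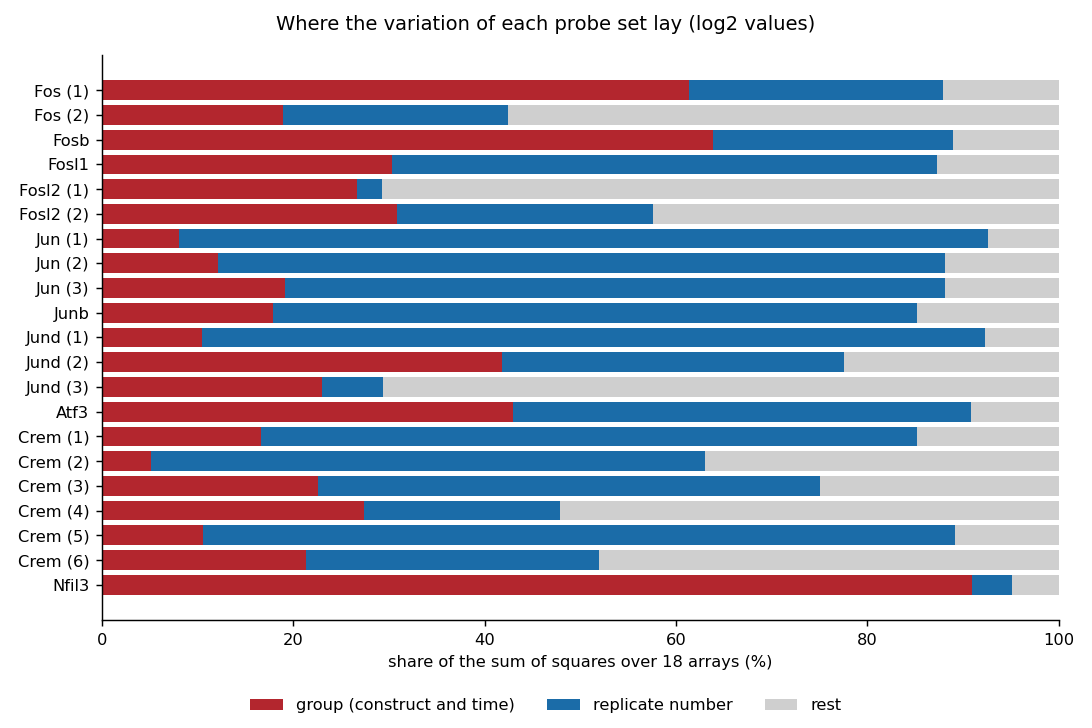
Share of the sum of squares of log2(intensity + 16) over the 18 arrays that fell to the 6 groups (red), to the replicate number (blue) and to the rest (grey), for the 21 probe sets numbered from the brightest within a gene. The red part was 91.0% for Nfil3, and the blue part was 84.6% for the first Jun probe set.

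The arrays of replicate 1 exceeded those of replicate 3 on average by 1.58 for Atf3, 1.38 for Fos, 0.93 for Fosb, 0.87 for the brightest Jun probe set and 0.33 for Nfil3. In size these differences stood at the percentiles 99.9, 99.8, 99.3, 99.2 and 90.8 of all 31042 probe sets, whose median was 0.07. Markers of other cells differed between the replicate numbers too. Gfap, the intermediate filament of astrocytes, averaged 12200, 8752 and 4631 in replicates 1, 2 and 3, and the summed level of all 5 astrocyte markers was 34420 to 39140 in replicate 1, 26620 to 28430 in replicate 2 and 25840 to 27510 in replicate 3. The other astrocyte markers did not share this order: Aldh1l1 averaged 322, 265 and 602, Slc1a3 11660, 10100 and 10700, and Aqp4 and S100b were lowest in replicate 2. Pdgfra, of oligodendrocyte precursors, averaged 1631, 2220 and 5541, and the 4 measured oligodendrocyte markers of 5 summed to 6330 to 9716 in replicates 1 and 2 and to 10830 to 14280 in replicate 3. Olig1 was also highest in replicate 3, at 6546, whereas Mbp (611.5, 623 and 583) and Mog (78.9, 72.1 and 71.0) were lowest there. The lowest reading of each array was 18.97 to 20.61, so no marker could read 0, whether or not its cells were present. The part of these other cells in the spread of the members was not tested.

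Markers of neurons and of astrocytes were both bright in these cultures. The 7 neuronal markers, among them Map2 and Snap25, summed to between 35790 and 41480 on all arrays, and the microglial and endothelial markers to 853 and 254 at most. The 5 fibroblast markers summed to between 785 and 1406, lower with MEF2-VP16-ER on average at every time. At 0 h, before 4OHT, their sum already averaged 1025 with MEF2-VP16-ER and 1256 in the control. Among them Dcn, the brightest, differed between constructs by -0.57 ± 0.32 at 1 h and -0.58 ± 0.32 at 2.5 h. Both passed only with the block (adjusted p = 0.00980 and 0.00106). At each of these times 2 of the 5 were higher with MEF2-VP16-ER. Of the 4 excitatory markers 3 were measured, and their sum was 10440 to 12300 at 0 h and 6966 to 8809 at 2.5 h with MEF2-VP16-ER, beside 9324 to 11140 at 2.5 h in the control. Among these Neurod6 fell by 0.66 from 0 h to 2.5 h with MEF2-VP16-ER (adjusted p = 0.0158), in the same comparison in which Nfil3 rose, and its part in that result was not tested. Of the 3 excitatory markers 1 was higher at 2.5 h than at 0 h there, and 2 of the 3 had a positive 2.5 h induction (median 0.040). Neurod6 was the brightest of them and the only 1 called, and with the block it was also called between constructs at 2.5 h (-0.49 ± 0.12, adjusted p = 0.00187), from 1 h to 2.5 h with MEF2-VP16-ER (-0.45 ± 0.12, adjusted p = 0.00855) and in the 2.5 h induction (-0.55 ± 0.17, adjusted p = 0.0275). The SE given for Dcn and Neurod6 are from the fit without the block. In such bulk cultures fewer cells of a type and less RNA per cell cannot be told apart.

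Among other bZIP genes Mafk alone was called without the block. Of 33 measured genes of a list of 38, 0 rose and 1 fell from 0 h to 2.5 h with MEF2-VP16-ER: Mafk, a small Maf protein that pairs with larger bZIP factors, fell by 0.49 ± 0.08 (adjusted p = 0.00937). Mafk was also lower with MEF2-VP16-ER than in the control at 2.5 h, by -0.47 ± 0.08 (adjusted p = 0.00960), and its induction of -0.59 ± 0.12 passed only with the block (adjusted p = 0.0742, and 0.00138 with it). The median of the 33 genes from 0 h to 2.5 h was -0.061, beside -0.0034 over all probe sets. With the block a probe set of Cebpa also passed in that comparison (-0.35 ± 0.09, adjusted p = 0.0176), and Mafk passed from 1 h to 2.5 h (-0.31 ± 0.08, adjusted p = 0.0127). Between constructs at 2.5 h the block called 1 gene higher and 2 lower: Maf, a large Maf factor (0.34 ± 0.13, adjusted p = 0.0180), Cebpa by another probe set (-0.21 ± 0.07, adjusted p = 0.0379) and Mafk. Of all probe sets the block called 3.49% there, beside 1.28% without it. From 0 h to 2.5 h with MEF2-VP16-ER 0.789% of all were called without the block and 2.33% with it. The SE given for Mafk, Cebpa and Maf are from the fit without the block.

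Of 29 kinases and factors upstream of Fos and Jun, 22 were measured and none was called without the block, with a median of -0.0076 from 0 h to 2.5 h with MEF2-VP16-ER. Srf, whose protein binds the CArG box of immediate early genes, differed by -0.30 ± 0.10 from 0 h to 2.5 h with MEF2-VP16-ER, and by -0.47 ± 0.14 in the 2.5 h induction. Both passed with the block (adjusted p = 0.00814 and 0.00810), as did its difference of -0.40 ± 0.10 between constructs at 2.5 h (adjusted p = 0.00059). Of 26 genes reported as AP-1 targets 25 were measured and none was called without the block, with a median of -0.031 from 0 h to 2.5 h with MEF2-VP16-ER. With the block, Penk, an opioid peptide gene, passed upward in that comparison (0.32 ± 0.15, adjusted p = 0.0297), and 3 probe sets of the cyclin gene Ccnd1 passed downward (-0.48 to -0.50). Between constructs at 2.5 h the neuropeptide gene Nts passed downward with the block (-0.41 ± 0.20, adjusted p = 0.0342). In the other comparisons no gene of these 3 lists was called without the block, Mafk excepted as given above. Of all probe sets the block called 2.33% from 0 h to 2.5 h with MEF2-VP16-ER, beside 0.789% without it. It called 0.937% of all in the 2.5 h induction and 3.49% between constructs at 2.5 h. The SE given for Srf, Penk and Nts are from the fit without the block.

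Genes whose pattern over the 18 arrays was most like that of a member were sought among 12103 brighter probe sets with 1 symbol, by Pearson's r of log2 values, for members that spanned over 1 log2 unit. For Nfil3 they were Cited2 (r = 0.98), Mylip (0.97) and Nr4a1 (0.97, an orphan nuclear receptor and immediate early gene). For Fos they were Dsel (0.93), Fbxo33 (0.88) and Klf5 (0.88), and for Fosb Zfp36 (0.92), Klf4 (0.83) and Pnisr (0.80). For Atf3 they were Slit2 (0.92), Mdfic (0.91) and Sat1 (0.91), and for Crem Anxa11 (0.95), Plcl1 (0.95) and Uba6 (0.94). For Jun they were Cpeb1 (0.97), Bcl2l11 (0.97) and Slc1a5 (0.97), and for Junb Mknk1 (0.91), Slc1a5 (0.90) and Cpeb1 (0.90), so that Jun and Junb shared 2 of 3. These are descriptions over 18 arrays that share 6 groups and 3 replicate numbers, and a high r can come from either.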

How the data were processed

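Values are the intensity per probe set as deposited by the authors, on a linear scale; labelled cRNA was made by the array maker's procedure, per the labels' protocols, and the probe set summary and normalization are not given in the sources used here. Array quartiles lay close together, and no further normalization was applied. Control probe sets (57) were left out; of the other 31042, 20826 carried 1 symbol, 436 several and 9780 none. Values were taken as log2(intensity + 16) of the deposited table, and all 18 arrays entered 1 limma model (lmFit, eBayes) with a mean per group and Benjamini-Hochberg adjustment within each comparison over all 31042 probe sets. Residuals had 12 degrees of freedom.

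Residuals of same-numbered arrays were correlated above 0.1 in 44 of 45 pairs of arrays. The exception (0.068) joined the replicate 2 arrays of MEF2-VP16-ER before and 1 h into 4OHT, so comparisons that hold both groups (the 1 h change with MEF2-VP16-ER and the 1 h induction) were not treated as paired. Elsewhere the blocked fit is given beside a result whose call or count it changes. That the numbers mark shared cultures or days is not stated in the labels.

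Members, gene lists and comparisons were chosen with earlier results of these data known. Every member probe set is described; list genes are named where a comparison called them, with or without the block. In list counts each gene was represented by its brightest probe set. Alternatives were pseudocounts of 1 and 64, quantile normalization, median centring, probe sets above the median level, a trended robust prior, only the groups of the comparison, the replicate block, and leaving out a replicate number or a single array. The steps were tested on simulated data, and protein sequences were not analysed here. The number of arrays limits the precision. Models were fitted in limma 3.58.1 under R 4.3.3, and motifs and figures were made with pandas 2.3.3 and matplotlib 3.10.9 under Python 3.11.15.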

Additional observations from a re-analysis of the deposited data

Results flagged for a closer look

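The fourth Crem probe set, a dim one, was higher at 1 h than at 0 h in all 3 MEF2-VP16-ER replicates, at 58.4, 60.8 and 56.6 after 58.2, 49.1 and 52.1. It was lower in all 3 control replicates, at 55.0, 54.6 and 46.0 after 67.3, 60.2 and 52.2. These opposite directions drew attention to it. The difference itself was tested as the 1 h induction, which was 0.27 ± 0.13 and was not called (adjusted p = 0.996).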

How the results depend on the processing

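No member changed direction in a comparison in which it was called. From 0 h to 2.5 h with MEF2-VP16-ER the count of members called was 1, and 3 with the replicate block, and it ranged from 0 to 1 over the fits that left out a replicate number or a single array. Nfil3 was called there in 15 of 17 alternatives, with estimates of 1.07 to 1.30. At 1 h against 0 h with MEF2-VP16-ER the count was 0, but it was 1 (Nfil3) with a pseudocount of 1, quantile normalization, median centring, only probe sets above the median level, or a trended robust prior, and 0 to 1 with arrays left out. The replicate block gave 3 of the 21 there, Nfil3 (adjusted p = 0.00132), Fosb (0.00144) and Fos (0.0437), against 0.187% of all probe sets. For the 1 h induction the block gave 0 (Nfil3, adjusted p = 0.166), against 0.029% of all. For the 2.5 h induction the count was 0, and 1 with the replicate block and 0 to 1 with arrays left out. Between constructs at 1 h it was 1, 0 with only the groups of the comparison in the fit and 0 to 1 with arrays left out. At 2.5 h it was 1, 3 with the replicate block and 0 to 1 with arrays left out. Fits on fewer arrays have fewer degrees of freedom; the cause of the other changes was not tested. The block moved counts over all probe sets by more than 1.5 times: from 55 to 291 for the 2.5 h induction, from 1 to 9 for the 1 h induction, from 13 to 124 for their difference, from 245 to 724 and from 11 to 58 for the MEF2-VP16-ER changes at 2.5 h and 1 h, from 88 to 399 between those times, and from 19 to 79 and from 397 to 1083 between constructs at 1 h and 2.5 h. Counts of 0 became 1 for the control change at 2.5 h and the constructs at 0 h, and 3 for the control from 1 h to 2.5 h. It changed no other member's call. All 18 arrays correlated best with an array of their own number. With only the groups of a comparison in the fit, 75 probe sets were called from 0 h to 2.5 h with MEF2-VP16-ER and 32 in the 2.5 h induction. Detection calls were not used here, so how far dim probe sets, such as that of Fosb, stood above background was not measured.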
